A study of Mus musculus with 16 samples.

Results

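Tubular injury markers are genes that kidney tubule cells switch on or raise when they are damaged, and 10 of them were followed here in whole kidney: Havcr1, Lcn2, Krt20, Sox9, Spp1, Clu, Vim, Cdkn1a, Krt19 and Cd44. The members were chosen by name, as the probes of a one-colour mouse expression array whose listed transcript belongs to one of these genes. All 10 genes had a tested probe, among 16401 named genes that did, and 14 of their 15 probes were tested among 35629 in all. The arrays came from 16 mice aged 6 months by the labels (a legend of the study gives a range that begins at 6 months and runs later), with 4 mice in each of 4 genotypes and 1 array per mouse. WT mice were C57BL/6. Mice of the lupus group, Fcgr2b-ko (here Fcgr2b-/-), lacked Fcgr2b, the inhibitory Fc receptor for IgG, on a 129/C57BL/6 background. Sting-ko mice (Sting gt/gt) were C57BL/6 and carried the Goldenticket allele of Sting1, which acts as a functional knockout of the DNA-sensing adaptor STING. Double-deficient mice (Fcgr2b-ko, Sting-ko) carried both on the 129/C57BL/6 background. Loss of Fcgr2b and the 129/C57BL/6 background therefore cannot be told apart. The study's methods state that WT mice were purchased and that double-deficient mice were bred with littermate controls, and its array heatmaps head the Fcgr2b-/- column as Sting wt/gt. The comparisons ask whether injury markers are raised in the kidneys of the lupus mice and whether that depends on Sting.

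Injured proximal tubule cells lose transport functions, shed their brush border and take on a flat, partly mesenchymal state from which they can repair. In that state they expose or secrete proteins that reach the urine, such as KIM-1 (the product of Havcr1) and NGAL (the product of Lcn2), and they make intermediate filaments and adhesion receptors that resting tubules have little of. In lupus nephritis, tubules are injured beside inflamed glomeruli and interstitium, and several of these genes are also used by immune cells, stroma, collecting duct or urothelium.

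Levels are given as the log2 brightness of a probe minus the 75th percentile of its array, so 0 is the brightness of the probe at that percentile, and a value below 0 can still be well above background. Where several probes read one gene, the brightest stands for it. Differences between genotypes were tested with limma over all 35629 probes, and calls needed a change of at least 2-fold and an adjusted p (Benjamini-Hochberg) under 0.05. The p-values set differences between genotypes against the spread between these mice, with all mice treated as independent. Fcgr2b itself was at 1.14 to 2.13 in WT, 0.02 to 0.70 in Fcgr2b-/- and -0.40 to 0.50 in double-deficient mice, so neither deficient group overlapped WT. In Sting gt/gt mice Fcgr2b was at 1.54, 1.05, 0.70 and -0.19, and the last of these (replicate 4) lay within the range of the deficient mice. By the second Fcgr2b probe they were at -0.32, -0.53, -1.01 and -1.43, against -1.45 to -0.58 in Fcgr2b-/- mice. Replicates 3 and 4 thus both lay within that range. The mean by the brightest probe was 0.92 lower in Sting gt/gt than in WT mice (change -0.92, SE 0.35). The Sting1 probe did not separate the groups (mean 1.20 in Fcgr2b-/- and -0.23 in WT, all groups overlapping), and the Goldenticket allele is a point mutation that such a probe does not check. Kidney identity was clear on every array: all 20 proximal tubule genes were tested, and Kap averaged 9.88 in WT. Between 28443 and 35566 probes per array were well above background. The labels give no sex, but Ddx3y, Uty, Kdm5d and Eif2s3y, which lie on the Y chromosome, were all well above background on 6 arrays and on none of the other 10. The 6 were 2 of 4 WT (replicates 1 and 2), 1 of 4 Fcgr2b-/- (replicate 3), 2 of 4 double-deficient (replicates 2 and 4) and 1 of 4 Sting gt/gt (replicate 3). The genotypes were thus not balanced for Y-linked signal, and Fcgr2b-/- replicates 1 and 4 were without it.

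Most members had higher mean levels in Fcgr2b-/- kidneys than in WT, yet none was called. Of the 10 members, 9 were higher and 1 (Sox9, by its brightest probe) lower, and 6 were at least 2-fold higher: Havcr1, Cd44, Lcn2, Vim, Krt20 and Clu. The median member change was 1.12 on the log2 scale, against -0.06 over all tested probes, of which 4.33% were at least 2-fold higher. With limma, 0 of 10 members passed the adjusted threshold, where 0.0505% of all probes did (18 of 35629, or 0 to 37 with 1 array left out). At an unadjusted p under 0.05 there were 5 of 10 members, against 3.35% of all probes. Vim was the only member whose groups did not overlap, where 1.24% of probes did not. In RNA from whole kidney, fewer or more cells of a type cannot be told apart from less or more RNA per cell. Leaving out single mice of these groups moved the number of members at least 2-fold higher between 4 (without Fcgr2b-/- replicate 4) and 8 (without Fcgr2b-/- replicate 3). The number was 5 without WT replicate 1, where Clu was at 4.11 against 6.35 to 6.80 in the other WT mice.

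**Figure D1:**
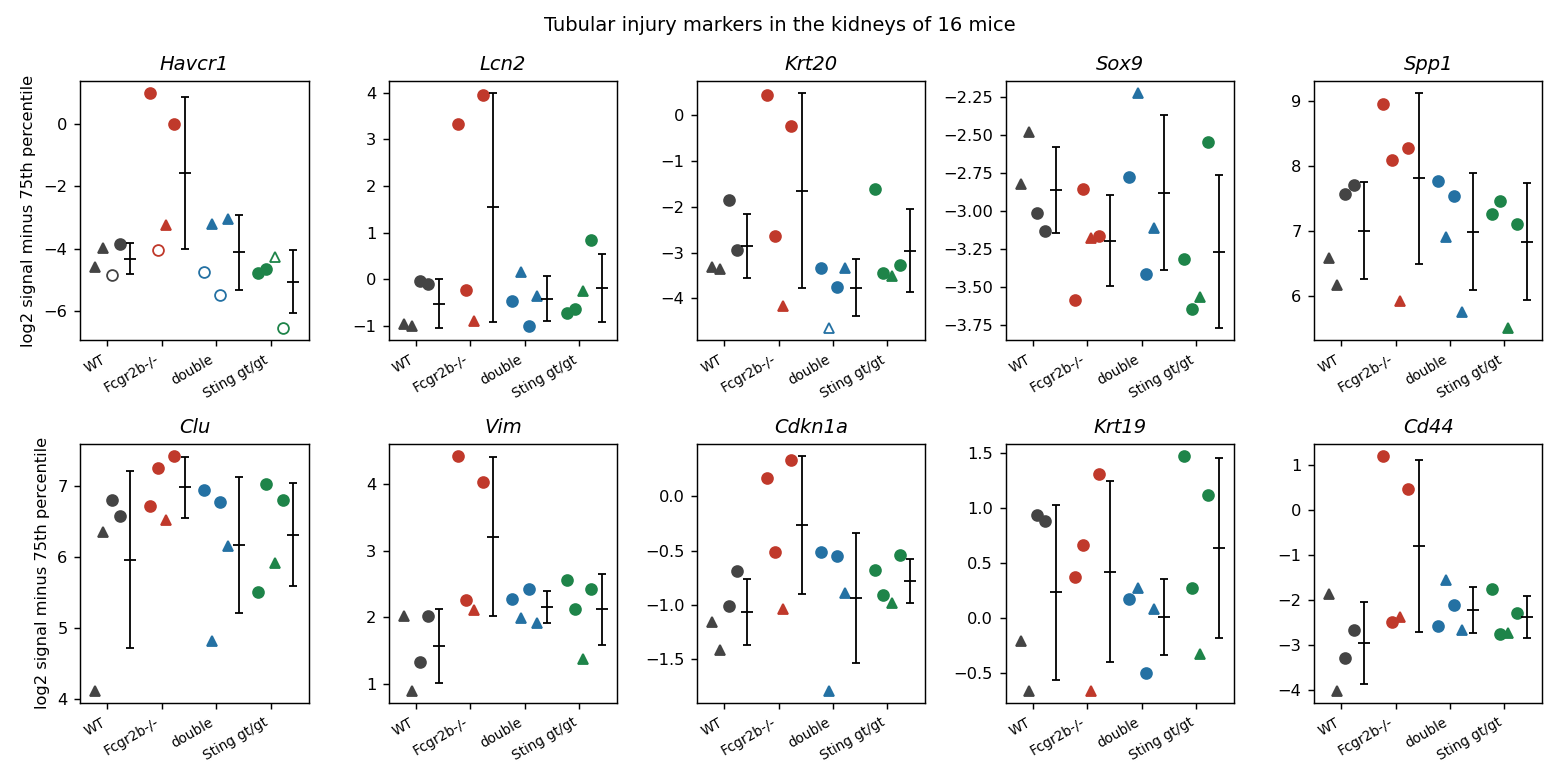
Level of each marker (log2 brightness minus the 75th percentile of the array, vertical axis) in each of 16 mice, by genotype. Triangles are arrays with Y-linked signal and circles those without, open symbols were not well above background, and bars beside the points give the mean ± SD of 4 mice. Fcgr2b-/- replicates 1 and 4 stand above the other arrays for Havcr1, Lcn2, Krt20, Vim and Cd44, for example 3.33 and 3.96 for Lcn2.

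Havcr1, which encodes the phosphatidylserine receptor KIM-1 of injured proximal tubule cells, had the widest difference. Its levels in WT replicates 1 to 4 were -4.60, -3.98, -4.86 and -3.84. In Fcgr2b-/- mice they were 1.002, -4.05, -3.24 and -0.00. In double-deficient mice they were -4.76, -3.21, -5.49 and -3.03, and in Sting gt/gt mice -4.78, -4.65, -4.27 and -6.55. Replicates 1 and 4 of Fcgr2b-/- were thus above all 14 other mice, while replicates 2 and 3 lay within the range of the other genotypes. The probe was well above background on 10 of 16 arrays, so the lowest levels are at the limit of detection. The mean was 2.75 higher in Fcgr2b-/- than in WT on the log2 scale (SE 0.94, 95% interval 0.75 to 4.75, limma unadjusted p = 0.0104, adjusted p = 1.0), a 6.71-fold difference in the means. It was 2.55 lower in double-deficient than in Fcgr2b-/- mice (change -2.55, SE 0.94, interval -4.55 to -0.55).

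Lcn2 encodes NGAL, a siderophore-binding protein that injured distal tubule and collecting duct cells secrete and that neutrophils also store. Levels were -0.96, -1.004, -0.03 and -0.11 in WT and 3.33, -0.22, -0.90 and 3.96 in Fcgr2b-/- mice. Double-deficient mice had -0.46, 0.15, -1.01 and -0.36, and Sting gt/gt mice -0.72, -0.64, -0.26 and 0.85. The same replicates of Fcgr2b-/-, 1 and 4, were the only arrays above 1, and replicate 3 lay within the WT range. The change against WT was 2.07 (SE 0.85, limma unadjusted p = 0.0279, adjusted p = 1.0). The change of double-deficient against Fcgr2b-/- mice was -1.96 (SE 0.85). The second Lcn2 probe gave 2.18 (SE 0.86) against WT, so both probes had similar differences.

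Spp1 encodes osteopontin, a secreted matrix and cytokine-like protein that the thick limb makes at rest and injured tubules make in larger amounts. It was the brightest member, at 6.58, 6.17, 7.57 and 7.70 in WT and 8.95, 8.09, 5.92 and 8.28 in Fcgr2b-/- mice. The levels were 7.76, 6.90, 7.54 and 5.75 in double-deficient and 7.27, 7.45, 5.51 and 7.10 in Sting gt/gt mice. Fcgr2b-/- replicates 1, 2 and 4 were above every other mouse, but replicate 3 was lower than all WT mice. The change against WT was 0.80 (SE 0.64, limma adjusted p = 1.0).

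Clu encodes clusterin, an extracellular chaperone that injured tubules release. In WT its levels were 4.11, 6.35, 6.80 and 6.58, the first far below the other WT mice. Fcgr2b-/- mice had 6.71, 7.25, 6.52 and 7.42, with the narrowest spread of any genotype for this gene (SD 0.43). Double-deficient mice had 6.94, 4.82, 6.76 and 6.15, and Sting gt/gt mice 5.50, 7.03, 5.91 and 6.80. All genotypes overlapped, and the change of Fcgr2b-/- against WT was 1.02 (SE 0.58, limma adjusted p = 1.0).

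Vim encodes vimentin, the intermediate filament of mesenchymal cells and leukocytes that regenerating tubule cells also make. Its levels were 2.02, 0.90, 1.34 and 2.03 in WT and 4.43, 2.27, 2.11 and 4.03 in Fcgr2b-/- mice. Every Fcgr2b-/- mouse was thus above every WT mouse, in 16 of 16 pairs. Double-deficient mice had 2.28, 1.99, 2.43 and 1.92, and Sting gt/gt mice 2.55, 2.13, 1.37 and 2.43. The change of Fcgr2b-/- against WT was 1.64 (SE 0.48, 95% interval 0.62 to 2.66), or 3.12-fold, with a limma unadjusted p of 0.00367 and an adjusted p of 0.755, the smallest of the members. The change of double-deficient against Fcgr2b-/- mice was -1.05 (SE 0.48).

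Cd44 encodes a hyaluronan receptor that injured tubule epithelium puts on its surface and that most activated leukocytes carry. WT mice had -1.86, -4.02, -3.28 and -2.67. Fcgr2b-/- mice had 1.20, -2.48, -2.38 and 0.46, so replicates 1 and 4 were above all 14 other arrays and replicates 2 and 3 were within the WT range. Double-deficient mice had -2.57, -1.56, -2.12 and -2.67, and Sting gt/gt mice -1.76, -2.76, -2.73 and -2.30. The change of Fcgr2b-/- against WT was 2.16 (SE 0.72, 95% interval 0.63 to 3.68, limma unadjusted p = 0.00861, adjusted p = 1.0). A second probe gave 2.24 (SE 0.77).

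The keratins differed from each other. Krt20 encodes the keratin of umbrella cells of the urothelium that injured proximal tubules also make, and it was at -3.30, -3.36, -1.85 and -2.94 in WT and 0.45, -2.64, -4.16 and -0.23 in Fcgr2b-/- mice. Double-deficient mice had -3.35, -4.65, -3.75 and -3.33, and Sting gt/gt mice -1.60, -3.45, -3.52 and -3.27. The change against WT was 1.22 (SE 0.80) and that of double-deficient against Fcgr2b-/- mice -2.12 (SE 0.80, limma unadjusted p = 0.0181, adjusted p = 1.0), again set by replicates 1 and 4. Krt19, a keratin of collecting duct and other simple epithelia, had levels of -0.21, -0.66, 0.94 and 0.88 in WT and 0.37, 0.66, -0.66 and 1.31 in Fcgr2b-/- mice. The other groups had 0.17, 0.28, -0.50 and 0.08 (double-deficient) and 1.48, 0.27, -0.33 and 1.12 (Sting gt/gt), and all 4 overlapped.

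Cdkn1a encodes p21, the cyclin-dependent kinase inhibitor that p53 induces and that holds damaged cells out of division. Levels were -1.16, -1.42, -1.01 and -0.69 in WT and 0.17, -0.51, -1.04 and 0.34 in Fcgr2b-/- mice. Double-deficient mice had -0.51, -1.79, -0.55 and -0.89, and Sting gt/gt mice -0.68, -0.91, -0.98 and -0.54. Replicates 1 and 4 of Fcgr2b-/- were above all 14 other mice, and the change against WT was 0.81 (SE 0.34, limma unadjusted p = 0.0300, adjusted p = 1.0). Sox9, a transcription factor of regenerating tubule cells, was the exception among the 10. Its brightest probe was at -2.82, -2.48, -3.01 and -3.13 in WT and -3.58, -2.86, -3.17 and -3.16 in Fcgr2b-/- mice. Double-deficient mice had -2.78, -2.22, -3.41 and -3.11, and Sting gt/gt mice -3.32, -3.64, -3.57 and -2.55. This probe differed from WT by -0.33 (SE 0.30), whereas the dimmer Sox9 probe was -1.24, -3.46, -3.93 and -2.37 in Fcgr2b-/- mice against -4.04, -5.00, -3.19 and -3.94 in WT, a change of 1.29 (SE 0.51). The probes of Sox9 therefore disagreed in direction, and no direction is given for the gene.

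**Figure D2:**
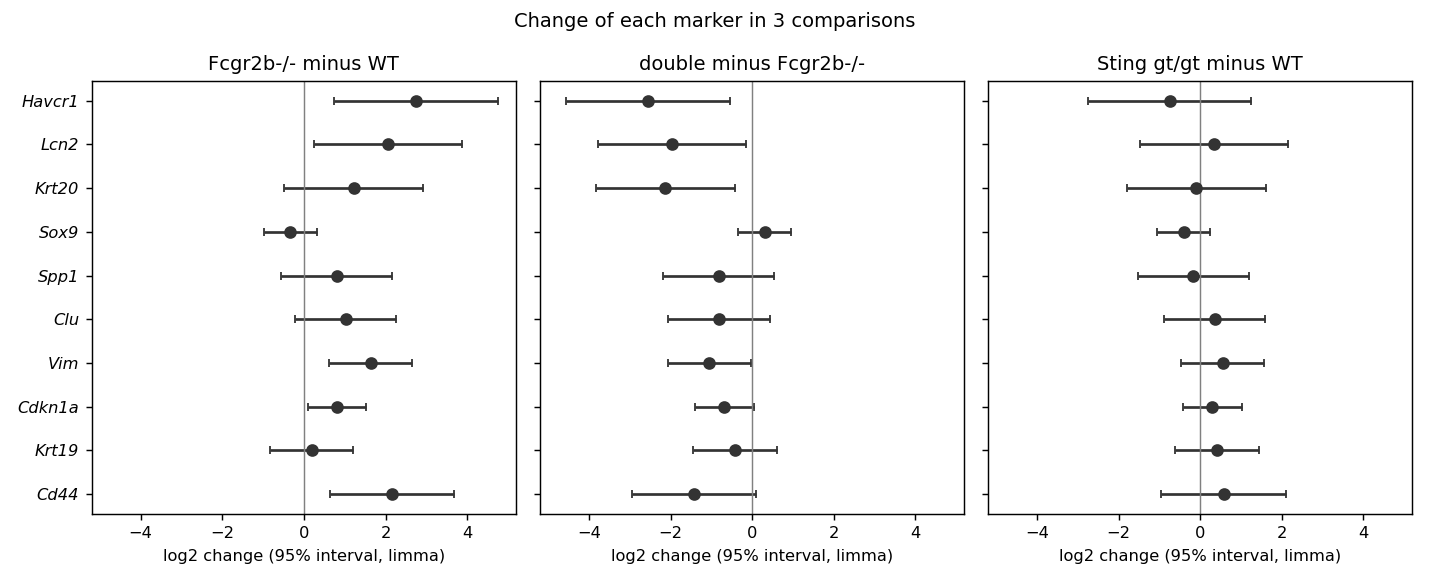
Log2 change of each marker (horizontal axis) with its 95% limma interval, for Fcgr2b-/- against WT, double-deficient against Fcgr2b-/-, and Sting gt/gt against WT, 4 mice per genotype. Intervals for Fcgr2b-/- against WT are widest for Havcr1 (0.75 to 4.75), and none of the 10 markers was called in any of the 3 comparisons.

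Loss of Sting in Fcgr2b-/- mice went with lower mean levels of most members, again without a call. Double-deficient kidneys were lower than Fcgr2b-/- kidneys for 9 of 10 members, with a median change of -0.94. Over all tested probes the median was 0.06, and 57.5% were higher. Sox9 again had no single direction, with 0.31 (SE 0.30) by its brightest probe and -1.54 (SE 0.51) by the dimmer one. Havcr1, Krt20, Lcn2, Cd44 and Vim, 5 of the 10, were at least 2-fold lower, where 2.64% of all probes were. None of 10 was called by limma, nor was any probe of the whole array (0.0%), while 4 of 10 members and 1.81% of probes had an unadjusted p under 0.05. No member separated these groups without overlap, against 1.02% of probes. The number at least 2-fold lower ran from 3 (without Fcgr2b-/- replicate 1) to 7 (without double-deficient replicate 1 or 3). Because both comparisons share the Fcgr2b-/- mice, the 2 sets of changes are not independent of each other. The groups were also uneven over array slides and Y-linked signal, and differences by each are given below.

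Double-deficient mice differed from WT by -0.90 (Krt20) to 0.73 (Cd44), with 6 members higher, 4 lower and none at least 2-fold changed. Here 0 of 10 were called (0.0% of all probes), 0 had an unadjusted p under 0.05 (0.424% of probes) and 0 did not overlap (0.547%). Sting gt/gt mice differed from WT by -0.75 (Havcr1) to 0.57 (Cd44), again with 0 of 10 called (0.0%), 0 with an unadjusted p under 0.05 (3.76%) and 0 without overlap (2.04%). The interaction, which asks whether losing Sting changed levels differently with and without Fcgr2b, was below 0 for 9 of 10 members with a median of -1.38, and 6 were at least 2-fold below 0, where 12.6% of all probes were. None was called (0.0% of all probes). Sox9, the exception, gave 0.72 (SE 0.43) by its brightest probe and -2.48 (SE 0.72) by the dimmer one. Vim (-1.61, SE 0.68, limma adjusted p = 0.661) was the only member with an unadjusted p under 0.05, where 6.27% of probes had one.

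The 4 Fcgr2b-/- mice were unlike each other. Replicates 1 and 4 had 7 and 9 of 10 members at least 2-fold above the WT mean, and replicates 2 and 3 had 2 and 1. The mean over the 10 members, as a log2 difference from the WT mean, was 2.29, 0.53, -0.12 and 2.22 in replicates 1 to 4. In the 4 double-deficient mice it lay between -0.03 and 0.25, and in the 4 Sting gt/gt mice between -0.30 and 0.38. The median SD of the members was 1.25 in Fcgr2b-/- mice, against 0.58 over all tested probes in the same arrays, and 0.63, 0.55 and 0.72 in WT, double-deficient and Sting gt/gt mice. Lcn2 and Havcr1 had SDs of 2.46 and 2.45 there, at the 99.6th percentile of all probes for both. These mice are described one by one, and no test sets replicates 1 and 4 against the others.

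**Figure D3:**
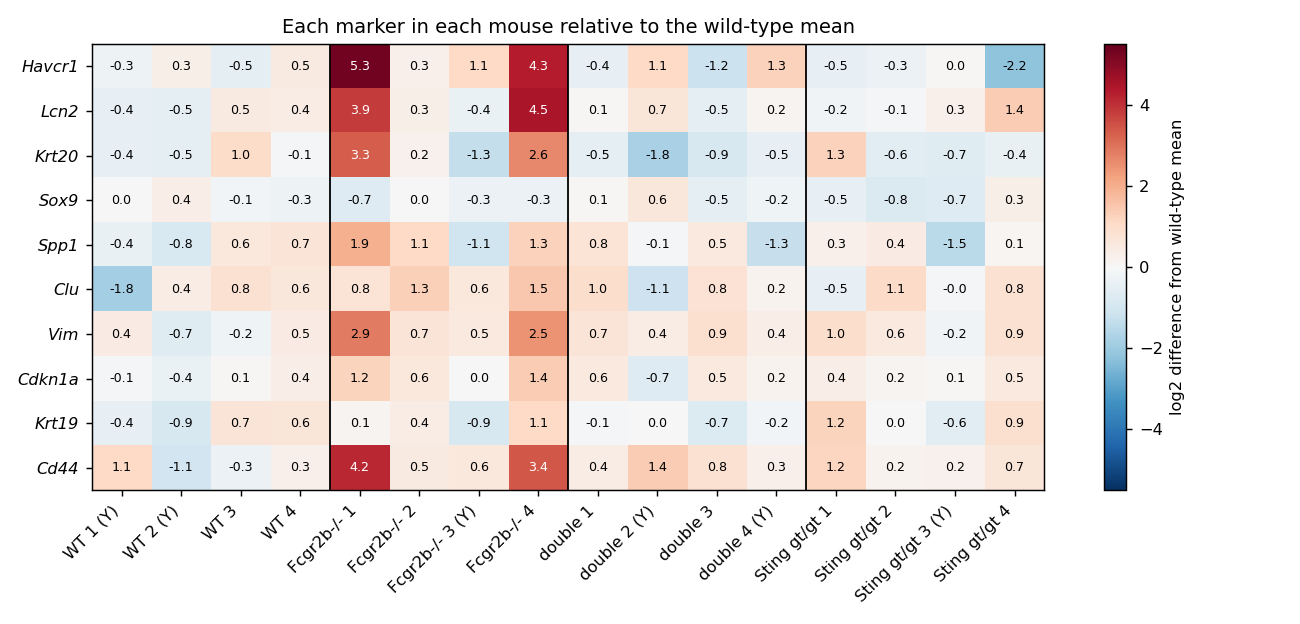
Log2 difference from the WT mean of each marker (rows) in each of 16 mice (columns, by genotype and replicate), with arrays with Y-linked signal marked. The colour scale runs from blue (lower) to red (higher), and the rows of Havcr1, Lcn2, Krt20, Vim and Cd44 are red in Fcgr2b-/- replicates 1 and 4, whose mean over the 10 markers is 2.29 and 2.22.

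Havcr1, Lcn2, Krt20, Vim, Cd44 and Cdkn1a had similar patterns across mice, with Pearson r of 0.49 to 0.95 over their 15 pairs (median 0.77, 16 mice, chosen after their values were seen). The 30 pairs with Sox9, Spp1, Clu or Krt19 ran from -0.48 to 0.71. Each of the 6 genes was highest in Fcgr2b-/- replicates 1 and 4, which all these values share. Promoter sequence is shown for 4 of the 6, as the 250 bases before the annotated start, 5′ to 3′ on the gene's strand, from RefSeq on GRCm38.p6. Windows of 300 bases, to 50 past the start, were found for 7 of the 10 members (11 windows), and capitals mark motif letters found on either strand. Motifs searched were TATAAA, TTCNNNGAA (a STAT site), TGANTCA (an AP-1 site) and CATG followed by any 6 letters and CATG again (the cores of adjacent p53 half-sites), with no overlap among matches.
Vim, chr2:13574061-13574310, plus strand: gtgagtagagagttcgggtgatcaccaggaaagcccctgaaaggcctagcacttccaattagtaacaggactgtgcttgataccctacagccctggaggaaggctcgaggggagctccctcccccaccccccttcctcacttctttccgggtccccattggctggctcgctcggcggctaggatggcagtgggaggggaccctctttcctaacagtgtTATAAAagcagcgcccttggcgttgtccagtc
Krt20, chr11:99438154-99438403, minus strand: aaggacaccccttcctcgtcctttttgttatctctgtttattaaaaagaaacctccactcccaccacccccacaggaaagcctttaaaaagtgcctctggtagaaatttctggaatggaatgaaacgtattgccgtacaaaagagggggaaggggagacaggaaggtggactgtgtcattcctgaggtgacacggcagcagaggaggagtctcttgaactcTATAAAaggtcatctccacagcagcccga
Lcn2, chr2:32387740-32387989, minus strand: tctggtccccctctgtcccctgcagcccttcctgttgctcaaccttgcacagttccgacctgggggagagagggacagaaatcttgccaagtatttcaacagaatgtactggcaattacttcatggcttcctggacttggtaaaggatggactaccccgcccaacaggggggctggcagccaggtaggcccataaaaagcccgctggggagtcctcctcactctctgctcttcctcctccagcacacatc
Cdkn1a, chr17:29090729-29090978, plus strand: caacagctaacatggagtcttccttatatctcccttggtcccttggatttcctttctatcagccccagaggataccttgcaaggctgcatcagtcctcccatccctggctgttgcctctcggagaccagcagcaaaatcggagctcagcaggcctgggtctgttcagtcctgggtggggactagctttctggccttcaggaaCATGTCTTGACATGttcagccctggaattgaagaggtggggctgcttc
Vim and Krt20 held TATAAA beginning 32 and 29 bases before the start, a motif in 13.6% of 32851 windows of this length. Cdkn1a, in the first of its windows, held CATGTCTTGACATG beginning 48 bases before the start, a motif in 0.712% of windows. The second of the 2 Cdkn1a windows held none of these motifs, and which start the probe's transcript uses was not tested. Lcn2 had none of these letters in its window. Elsewhere Havcr1 held TGANTCA in 1 of its 3 windows and Spp1 TATAAA in 1 of its 2, and no member window held TTCNNNGAA. TGANTCA was in 7.81% and TTCNNNGAA in 8.30% of all windows. These matches describe letters and say nothing of binding.

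Arrays with and without Y-linked signal were also compared, a choice made after the data were seen. Spp1 was called, the only one of the 10. Its levels were 5.51 to 6.90 (median 6.05) on the 6 arrays with the signal and 7.10 to 8.95 (median 7.64) on the 10 without. In a limma fit with genotype, Spp1 was 1.65 lower with the signal (change -1.65, SE 0.24, adjusted p = 0.000532), or 3.15-fold, without overlap of the arrays. One of 10 members was called, where 3.49% of all probes were. Clu (-1.05, SE 0.36, adjusted p = 0.129), Krt19 (-0.87, SE 0.30, adjusted p = 0.128), Cdkn1a (-0.64, SE 0.20, adjusted p = 0.0894) and Krt20 (-1.27, SE 0.53, adjusted p = 0.246) were not called, and their means were also lower on the arrays with the signal. Lcn2 (-0.80, SE 0.63), Vim (-0.71, SE 0.32) and Cd44 (-0.47, SE 0.54) were lower too and not called. Havcr1 gave 0.34 (SE 0.73), and Sox9 0.16 (SE 0.23) by its brightest probe and -0.80 (SE 0.33) by the dimmer one. Fcgr2b-/- has 1 such array against 2 in WT, and with the signal as a covariate Spp1 in Fcgr2b-/- against WT was 0.39 (SE 0.32) in place of 0.80. With the same covariate 8 of 10 members were higher and 4 at least 2-fold higher, with a median of 0.83, and Havcr1 gave 2.83 (SE 0.98), Vim 1.46 (SE 0.43) and Krt19 -0.03. Among arrays without the signal, 3 Fcgr2b-/- and 2 WT, differences were 3.33 for Havcr1, 2.42 for Lcn2, 2.70 for Cd44, 1.89 for Vim, 1.59 for Krt20, 0.85 for Cdkn1a, 0.80 for Spp1, 0.44 for Clu, -0.13 for Krt19 and -0.13 for Sox9. Among arrays with it, 1 Fcgr2b-/- and 2 WT, they were smaller or below 0 for all but Clu (1.29). These were 1.05 for Havcr1, 0.08 for Lcn2, 0.57 for Cd44, 0.65 for Vim, -0.83 for Krt20, 0.25 for Cdkn1a, -0.45 for Spp1, -0.23 for Krt19 and -0.52 for Sox9. In double-deficient against Fcgr2b-/- mice, the covariate left 4 members at least 2-fold lower and 2 with a limma unadjusted p under 0.05 (median -0.71). Among arrays without the signal, differences for Havcr1, Krt20, Lcn2, Cd44 and Vim were -4.11, -2.74, -3.09, -2.07 and -1.22. Among arrays with it, 1 Fcgr2b-/- and 2 double-deficient, they were 0.12, 0.17, 0.80, 0.26 and -0.16.

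**Figure D4:**
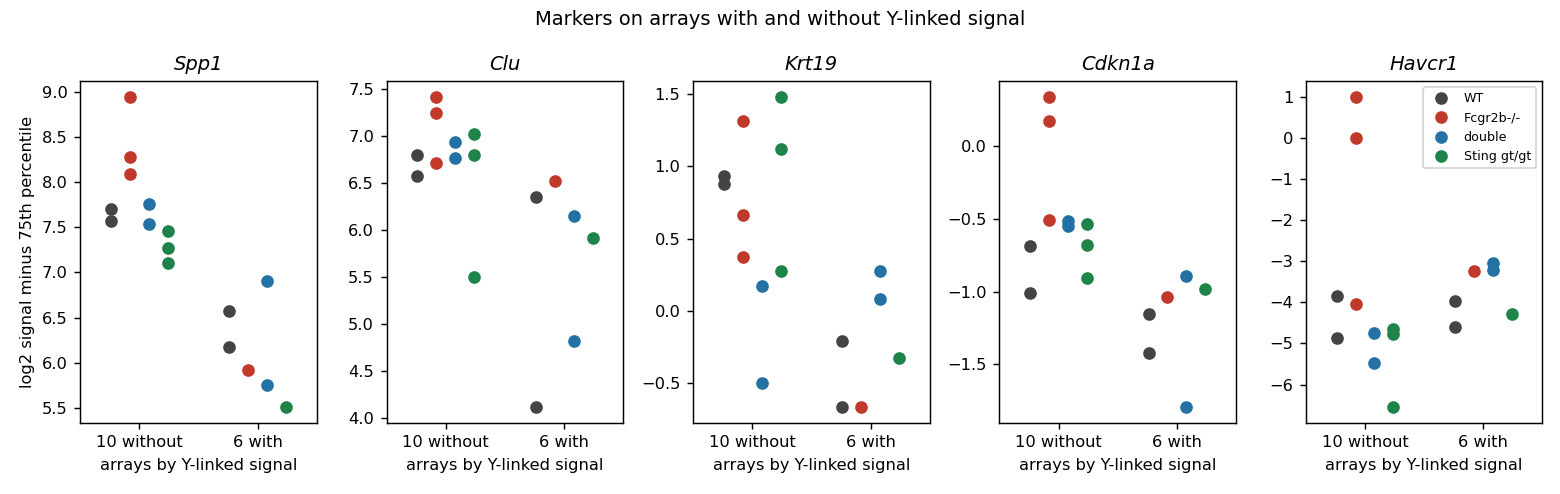
Levels of Spp1, Clu, Krt19, Cdkn1a and Havcr1 (log2 brightness minus the 75th percentile of the array, vertical axis) on the 10 arrays without and the 6 with Y-linked signal. The Spp1 arrays do not overlap (7.10 to 8.95 without, 5.51 to 6.90 with), and those of the other 4 genes do.

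Arrays were also spread unevenly over 2 slides. Slide 1 held WT replicates 1 and 2, Fcgr2b-/- replicates 1, 2 and 4, double-deficient replicate 1 and Sting gt/gt replicates 1 and 2. On slide 1, Fcgr2b-/- against WT was 3.27 for Havcr1, 3.34 for Lcn2, 2.12 for Vim and 2.67 for Cd44. On slide 2, with only replicate 3 of Fcgr2b-/-, the same differences were 1.11, -0.84, 0.43 and 0.60. Lcn2, Krt20 (2.53 and -1.77), Spp1 (2.06 and -1.71), Clu (1.90 and -0.16), Cdkn1a (1.29 and -0.19) and Krt19 (1.22 and -1.57) thus had opposite signs on the slides. Both WT mice on slide 1 had Y-linked signal and both on slide 2 did not. In Fcgr2b-/- mice it was the other way round, with replicates 1, 2 and 4 on slide 1 without it and replicate 3 on slide 2 with it. Each of these within-slide differences is therefore also a difference in Y-linked signal. Slide and Y-linked signal cannot be told apart in them, nor in the opposite signs. With slide as a block, the change of Vim was 1.54 (SE 0.48) and that of Havcr1 2.62 (SE 0.97). On slide 1, with only replicate 1 of the double-deficient mice, double-deficient against Fcgr2b-/- was -3.74 for Havcr1, -2.54 for Krt20, -2.82 for Lcn2, -2.30 for Cd44 and -1.30 for Vim. On slide 2, with only replicate 3 of Fcgr2b-/-, the same differences were -0.67, 0.25, 0.50, 0.26 and 0.00.

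Leukocyte markers were highest on average in the same Fcgr2b-/- mice, replicates 1 and 4. The leukocyte list (22 of 23 genes tested) had 21 genes higher in Fcgr2b-/- than in WT and 17 at least 2-fold higher, with a median of 1.92 and 0 called, and 15 at an unadjusted p under 0.05. Its mean over genes, as a log2 difference from the WT mean, was 3.15, 0.56, 0.48 and 2.54 in Fcgr2b-/- replicates 1 to 4, -0.79 to 1.32 in WT, 0.15 to 1.45 in double-deficient and -0.09 to 1.43 in Sting gt/gt mice. Fcer1g, the signalling chain of activating Fc receptors, differed by 2.44 (SE 0.68), Cd52 by 1.95 (SE 0.80) and Csf1r, the macrophage growth factor receptor, by 0.82 (SE 0.26), none of them called. For stroma and endothelium 13 of 15 genes were higher, with a mean of 2.30, -0.51, -0.06 and 1.37 in replicates 1 to 4 (1.75 in Sting gt/gt replicate 1) and with its brightest genes at 0.08 (Emcn, SE 0.68), 0.92 (Dcn, SE 0.87) and 0.89 (Tagln, SE 0.48). For podocytes 6 of 6 were higher (Synpo, an actin-binding protein of foot processes, 1.08, SE 0.32, and Wt1 0.74, SE 0.41). Fat genes averaged 2.30 in Fcgr2b-/- replicate 1 and 2.56 in WT replicate 1. Of 6 adrenal genes 3 were tested, and Cyp11b1, Cyp11b2 and Cyp11a1 were too dim. The part of these cells in the members' levels was not tested.

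Among mice, with genotype means removed and permutations within genotype, 6 relations were computed over 16 mice. They were chosen with earlier results of these data known, so their p-values are not those of relations set in advance. Cd44 followed the leukocyte list (Pearson r = 0.937, Spearman rho = 0.879, permutation p = 0.00016 and 0.00153, adjusted p = 0.00096 and 0.00918). With genotype means removed, the 2 mice farthest from the median of Cd44 were Fcgr2b-/- replicates 1 and 2, and r was 0.914 without them. Over the 12 mice that were not Fcgr2b-/- r was 0.891 (adjusted p = 0.0109) and rho 0.762, which missed the threshold (adjusted p = 0.0840). With Y-linked signal removed over 16 mice, r was 0.946 (adjusted p = 0.0316) and rho 0.900, which again missed it (adjusted p = 0.0736). Krt20 followed the urothelium list (r = 0.670, rho = 0.724, permutation p = 0.00337 and 0.00731, adjusted p = 0.0101 and 0.0219). Without the 2 mice farthest from the median of Krt20, Fcgr2b-/- replicates 1 and 3, r was 0.649. That relation missed the threshold with Y-linked signal removed (r = 0.502, adjusted p = 0.134). It also missed the threshold over those 12 mice (r = 0.687, adjusted p = 0.127). Over the 12, r was 0.391 without the 2 mice farthest from the median of Krt20, Sting gt/gt replicate 1 and WT replicate 3. Sting gt/gt replicate 1 also had the highest urothelium mean of the 16 mice (1.61). Havcr1 with Lcn2 gave r = 0.690 (rho = 0.621, permutation p = 0.250 and 0.132, adjusted p = 0.364) and Havcr1 with proximal tubule genes r = -0.469 (rho = -0.244, p = 0.316 and 0.464 by permutation, adjusted p = 0.364). In both, the 2 mice farthest from the median of Havcr1 were Fcgr2b-/- replicates 1 and 2, so replicate 4 stayed in. The first relation was 0.514 without those 2 mice and -0.124 over the 12, and the second was 0.019 and 0.562, so these values rest on the mice left out. Lcn2 with neutrophil genes (r = 0.435, rho = 0.347, permutation p = 0.364 and 0.285) and Cdkn1a with p53 targets (r = 0.616, rho = 0.688, permutation p = 0.0605 and 0.0344, adjusted p = 0.121 and 0.0688) did not pass.

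**Figure D5:**
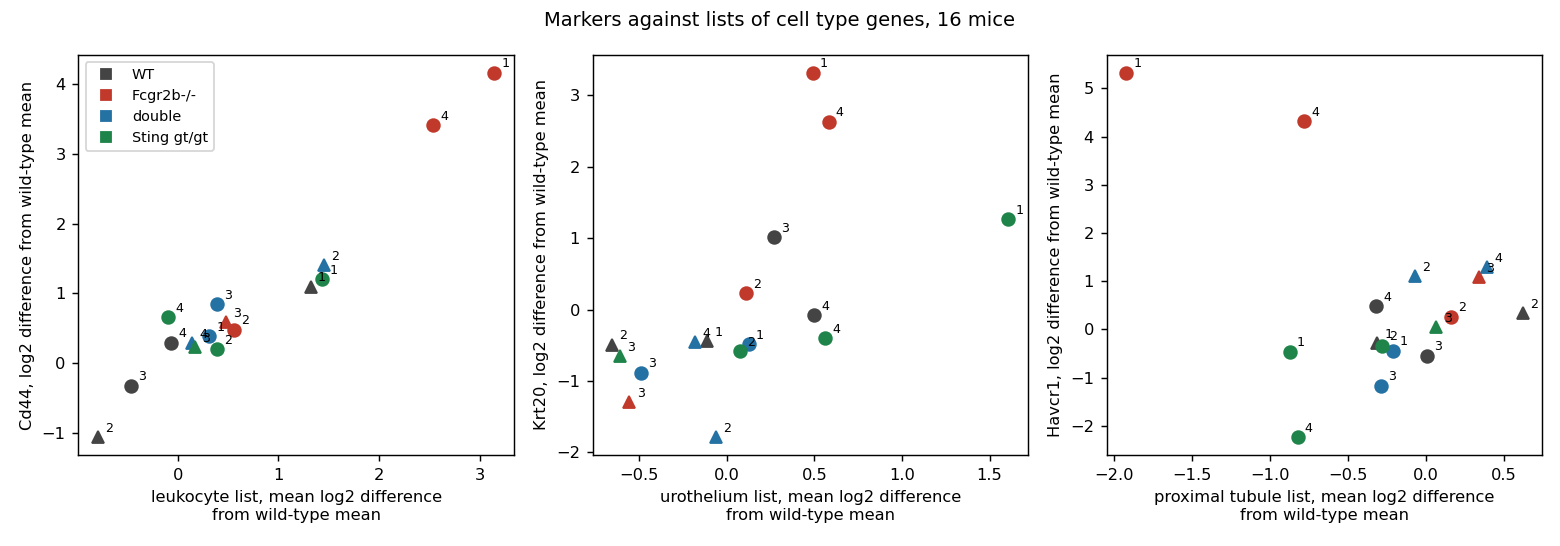
Each of 16 mice by list mean (horizontal axis) and member level (vertical axis), both as log2 difference from the WT mean, for Cd44 with leukocyte genes, Krt20 with urothelium genes and Havcr1 with proximal tubule genes. Numbers are replicates and triangles arrays with Y-linked signal. The Cd44 panel lies near a line (r = 0.937 with genotype means removed), while in the Havcr1 panel (r = -0.469) 2 Fcgr2b-/- mice, replicates 1 and 4, stand apart.

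Other genes of tubule injury and repair, a list of 38 all tested, had 31 higher and 7 lower in Fcgr2b-/- than in WT, 8 at least 2-fold higher, 0 called, and a median of 0.52. In double-deficient against Fcgr2b-/- mice 36 of 38 were lower, with a median of -0.51 and 0 called. Its brightest members were Igfbp7, an IGF-binding protein and arrest marker (0.10, SE 0.33), the small heat shock protein Cryab (-0.17, SE 0.56) and Anxa2, a membrane-binding annexin (0.58, SE 0.40). Early stress genes were higher in Fcgr2b-/- for 12 of 12, 4 at least 2-fold, with a median of 0.77 and 0 called. Of the AP-1 subunits, Junb differed by 0.99 (SE 0.28, limma adjusted p = 0.685) and Jun by 0.90 (SE 0.39). Of the p53 targets, 10 of 13 were higher with a median of 0.17 and 0 called. The 3 brightest had lower means than in WT, by about their SE or less, with Ccng1 at -0.42 (SE 0.39), Aen at -0.11 (SE 0.26) and Mdm2 at -0.09 (SE 0.25). Proximal tubule genes were lower in 19 of 20, with a median of -0.42 and 0 called, for example Miox, which breaks down myo-inositol (-0.42, SE 0.49), the androgen-regulated Kap (-0.23, SE 0.31) and the fatty acid transporter Slc27a2 (-0.33, SE 0.31). Their mean was -1.92, 0.16, 0.34 and -0.78 in replicates 1 to 4. For double-deficient against Fcgr2b-/- mice all 20 were higher, with a median of 0.42. The proximal tubule list includes Slc7a13, which followed Y-linked signal, at 5.56 to 6.43 on the 6 arrays with it and -4.01 to -2.23 on the 10 without. Among Fcgr2b-/- mice only replicate 3 had the signal, and its part in the list means was not tested. Genes of the thick limb, distal nephron and collecting duct were lower in 11 of 14, with Umod, or uromodulin, at 0.12 (SE 0.40), Egf at -0.31 (SE 0.46) and Kcnj1 at -0.49 (SE 0.26). Neutrophil genes were higher in 8 of 9 tested, with 4 genes (Ly6g, Ngp, Cxcr2 and Mmp9) too dim to test, and the 3 brightest gave 0.15 (Csf3r, SE 0.35), -0.35 (Elane, SE 0.35) and 1.35 (S100a9, SE 0.90). Urothelium genes were higher in 9 of 11, none 2-fold, with Trp63 at -0.05 (SE 0.29), Upk1a at 0.18 (SE 0.44) and Upk3a at 0.07 (SE 0.46).

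Genes with the pattern most like each member over the 16 mice, among 13848 named genes well above background on all arrays (13849 for Havcr1 and Krt20), are given by Pearson r as a description. Vav1 (0.988), Tlr2 (0.981) and Cd72 (0.980) were closest to Cd44, and Socs3 (0.970), Nfkbie (0.968) and Ripk3 (0.961) to Vim. Lcn2 was closest to Aoc1 (0.961), D17H6S56E-5 (0.897) and Cd37 (0.892), and Havcr1 to Lilra6 (0.933), Twf2 (0.896) and C4b (0.893). For Krt20 these were Tmem158 (0.875), Haus8 (0.873) and Cmtm7 (0.872), and for Cdkn1a Unc119 (0.932), Trex1 (0.927) and Fam181b (0.925). Spp1 was closest to Myof (0.954), Speg (0.944) and Cbr3 (0.939), and Clu to Clic3 (0.959), Shisa4 (0.957) and Rab3b (0.951). Krt19 was closest to Krt42 (0.928), Krt5 (0.875) and Msln (0.870), and Sox9 to Gucy1b2 (0.837), Prpmp5 (0.831) and Trank1 (0.825).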

How the data were processed

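Total RNA of whole kidney (100 ng) was labelled with Cy3 and hybridised to 16 one-colour Agilent arrays. The authors deposited scanner files whose intensity column, the processed signal, was background-corrected by Agilent Feature Extraction (version 11.0 in the submitters' processing notes), and a series table of log2 values whose normalization is not stated. In the deposited log2 table the 4 arrays sharing a replicate number have one common distribution, and it was used only as an alternative. Here control and outlier spots were left out, spots of a probe averaged, and log2 intensity set against the 75th percentile of each array. No spot was saturated. Testing, for probes detected above background on 4 or more of the 16 arrays, was done with limma 3.58.1 in R 4.3.3, with a mean per genotype, Benjamini-Hochberg adjustment, and a call at 0.05 and 2-fold, after the fit was checked on simulated data. Relations used 100000 permutations. RefSeq names (GRCm38.p6) covered 58.3% of 56605 probes. Named genes were the 10 members, the 3 brightest of each list (1 of them is not reported here) and the 3 most alike. The number of arrays limits precision. Members, lists and tests were chosen with earlier results of these data known, and the Y-linked comparisons after the data were seen.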

Additional observations from a re-analysis of the deposited data

Results flagged for a closer look

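2 of 40 groups of 4 mice (10 members in 4 genotypes) held 1 mouse far from the others by Dixon's test, where chance gives about 1 group in 20. Krt20 in Sting gt/gt replicate 1 was at -1.60, above the next mouse at -3.27, a gap of 0.869 of the group's range against a critical value of 0.829. Clu in WT replicate 1 was at 4.11, below the next WT mouse at 6.35, a gap of 0.835 of the range.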

How the results depend on the processing

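In the comparisons other than double-deficient against WT, for which member changes were not recomputed, no member passed the threshold under any of the settings tried, and the smallest adjusted p was 0.215. In Fcgr2b-/- against WT, 82 of 84 member changes kept their direction under other settings and 78 of 80 with 1 array left out, and in double-deficient against Fcgr2b-/- mice 83 of 84 and 80 of 80. The 18 called probes of Fcgr2b-/- against WT became 5 with normexp background correction, 7 in the authors' table, 0 with probes above background on all arrays, 0 with only the groups compared, 0 by the methods' Mann-Whitney test after adjustment (144 unadjusted), 8 with Y-linked signal as a covariate and 3 with a random block for mice whose animal labels begin with the same number (correlation 0.827), and ranged from 0 to 37 with 1 array left out. They were 0 without WT replicate 2, 3 or 4 or without Fcgr2b-/- replicate 4, 5 without any 1 double-deficient mouse or Sting gt/gt replicate 2, 3 without Fcgr2b-/- replicate 1 and 37 without Fcgr2b-/- replicate 2. Against 0 elsewhere, the Mann-Whitney test unadjusted gave 41 for double-deficient against Fcgr2b-/-, 63 for double-deficient against WT and 127 for Sting gt/gt against WT. Double-deficient against WT also gave 1 with normexp, 1 with probes above background on all arrays, 3 with only the groups compared and 0 to 1 with 1 array left out. The random block rests on few mice. Only WT replicates 3 and 4, Fcgr2b-/- replicate 3 with double-deficient replicate 4, and Fcgr2b-/- replicate 4 with double-deficient replicate 3 share a first number.

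Directions turned for Sox9 with the median over probes (0.48 for Fcgr2b-/- against WT, -0.61 for double-deficient against Fcgr2b-/-, 0.27 for Sting gt/gt against WT, -0.88 for the interaction). With Y-linked signal as a covariate Krt19 in Fcgr2b-/- against WT was -0.032 and the Spp1 interaction 0.18, and with 1 array left out that Krt19 change ran from -0.11 to 0.55. In Sting gt/gt against WT, Krt20 was 0.0589 with normexp and 0.0421 with the random block, and Spp1 was 0.0722 after quantile normalization, 0.10 in the authors' table and 0.0113 with the random block. With 1 array left out, that comparison ran from -0.55 to 0.24 for Krt20, -0.45 to 0.27 for Spp1, -0.27 to 0.63 for Clu and -0.016 to 0.51 for Lcn2. The relation of Krt20 with urothelium genes was 0.502 with Y-linked signal removed and 0.687 over the 12 mice of the other 3 genotypes. Over those 12 mice, Havcr1 with Lcn2 turned to -0.124, Lcn2 with neutrophil genes to -0.241 and Havcr1 with proximal tubule genes to 0.562. The cause was not tested.

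Replicate numbers did not pair the mice. Correlations of deviations between mice sharing a number ran from -0.60 to 0.69 (median -0.06), and 5 of 16 arrays were closest to one of their own number. With the replicate block, 16 probes were called in Fcgr2b-/- against WT. Probe signal near background limits Havcr1, above background on 10 of 16 arrays.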
